A study of Mus musculus with 12 samples.

Results

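The genes described here are 63 probes for RefSeq transcripts whose signal was detected in mature mouse oocytes with or without Dicer, out of 33012 gene probes on the array. They were selected on the readout: a probe entered if its accession was a RefSeq mRNA and its spot scored a signal of 3 or more times the noise (here called above background) on at least 6 of the 12 arrays, counted without regard to genotype. Of 517 RefSeq probes, 87 met this, and 24 of those genes were left out by name. The 63 that remained stand for 43 gene symbols on 45 probes, plus 18 probes whose accession the gene table used here does not name. The study compared 6 arrays labelled as Dicer knockout with 6 labelled wild type, each hybridized with digoxigenin-labelled cRNA from total RNA of mature mouse oocytes, which the labels describe as single-cell material. The strain, the allele, how Dicer was removed, the age of the females, and the number of oocytes or females behind each array are not stated in the sources used here. The p-values therefore measure only how far these arrays scatter, and that scatter may be technical. All arrays share a scan date, and the array numbers run through the knockout first, so array order and genotype cannot be told apart. Dicer1 has no named probe on the array, so the deletion could not be checked.

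Dicer is the RNase III enzyme that cuts microRNA and small interfering RNA precursors. A growing oocyte stores maternal transcripts for splicing, translation, mitochondria and signalling, and transcription is silent by the time it matures, so transcript levels there depend on storage and decay. MicroRNAs are known to act weakly in mouse oocytes, whereas endogenous small interfering RNAs made by Dicer hold down some genes and retrotransposons. The members include genes of splicing, ribosome assembly, mitochondria, chaperones, kinases and cell polarity that many tissues use.

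Of the 63 member probes, 11 rose in the knockout, 13 fell and 39 did not reach an adjusted p below 0.05 (limma on quantile-normalized log2 signal, Benjamini-Hochberg over 6088 tested probes). Over all tested probes 28.0% were higher and 22.4% lower. Without knockout replicate 3, 7 rose and 12 fell, and over all tested probes 1536 rose and 1253 fell. With arrays centred on the median of the tested probes 8 were higher and 23 lower, with hybridization controls 33 and 0, with transcription controls 37 and 0, and 34 and 2 in the authors' deposited table. All 6088 tested probes shifted likewise. In the same order, 1393 were higher and 1796 lower, 3591 and 135, 4204 and 62, and 3842 and 146. The named rises were Pdxp, Rraga, Zbtb18, Ghdc, Notum, Sf3b5, Pfdn5 and 2 of 3 probes for Prr18. The named falls were Rtl8c, Coa3, Eola1, Wnk4, Gnl2, Ctdnep1 and Dpp9. Because the genes left out by name were picked with results of these arrays known, the members' shares describe this selection and are no estimate for RefSeq genes at large. The median log2 fold change of the members was 0.01 and its quartiles were -0.79 and 0.61, against a median of 0.19 and quartiles of -0.77 and 1.23 over all tested probes.

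**Figure D1:**
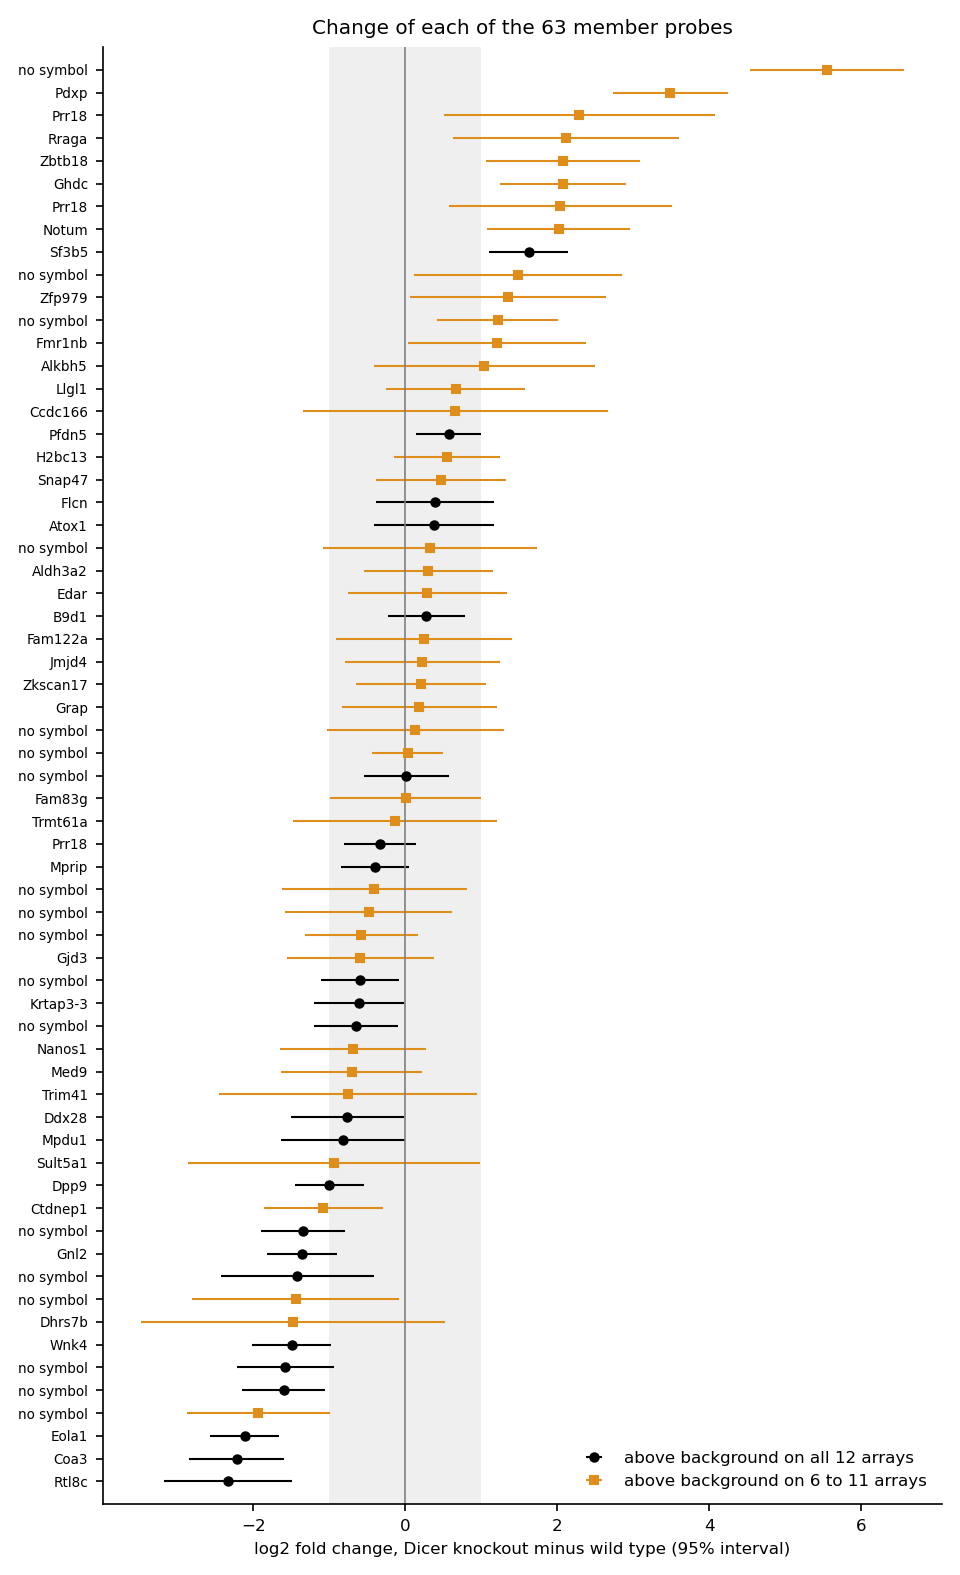
Log2 fold change, knockout minus wild type, with its 95% interval (x axis) for each of the 63 member probes in order (y axis; probes without a symbol are marked so). Black circles were above background on all 12 arrays and orange squares on 6 to 11, and the grey band runs from -1 to 1. Of the black points 11 fell and 2 rose after quantile normalization, and of the orange ones 9 rose and 2 fell.

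The knockout arrays were brighter, and this bears on every direction below. The median signal of the tested probes ran from 2736 to 6732 intensity units on knockout arrays and from 1069 to 2580 on wild-type arrays, 2.99-fold apart by geometric means, while hybridization control spots were 1.04-fold and in vitro transcription control spots 0.803-fold as bright. Between 49 and 62 members were above background on a knockout array and between 39 and 56 on a wild-type array. Their median signal-over-noise score was 6.74 to 19.02 and 4.39 to 7.96. Quantile normalization makes the distributions equal, so a fold change is relative to the rest of the array, and the median fold change of the tested probes was higher when arrays were scaled to control spots. Fewer cells and less RNA per cell cannot be told apart in such arrays. Of 5 oocyte markers with a named probe, Obox1, Obox2, Obox3 and Cphx1 were above background on all 12 arrays and Mos on 11. The single granulosa marker with a probe, Sfrp4, was above background on 1 of 12 arrays and the haemoglobin gene Hba-a1 on 2. The other 23 oocyte, 12 cumulus or granulosa and 6 blood markers had no named probe.

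The direction of a member's change went with how often it was detected. Of 23 members above background on all 12 arrays, 2 rose and 11 fell, with a median log2 fold change of -0.76. Among all 2979 probes detected that often, 21.8% were higher and 36.8% lower, with a median of -0.34. Of 40 members above background on 6 to 11 arrays, 9 rose (22.5%) and 2 fell, with a median log2 fold change of 0.27. Of all 3109 probes detected on 6 to 11 arrays 34.0% were higher and 8.49% lower, with a median of 0.72. A member that passed the detection rule through one genotype alone was more likely to be higher in that genotype, so these counts support no direction. In 18 members the probe was above background on every knockout array but not on every wild-type array, and in 3 the reverse held. At the edge of the rule, 5 probes were above background on exactly 6 arrays, among them Pdxp, Aldh3a2, Fam83g and Zfp979, with a sixth-highest score of 3.19 to 6.74. Just outside it, 7 RefSeq probes were above background on 5 arrays, with a sixth-highest score of 2.04 to 2.73.

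A splicing gene rose and a ribosome assembly gene fell, and the RNA helicase, RNA modification and RNA-binding members did not pass. Sf3b5, a small subunit of the SF3b complex that helps the U2 snRNP recognise the branch point, was on all 12 arrays, with log2 signals of 15.82 lowest, 16.49 median and 16.82 highest in the knockout, and of 14.38, 14.97 and 15.17 in wild type. Every knockout array lay above every wild-type array. It was 3.08-fold higher (log2 fold change 1.62 ± 0.24 SE, adjusted p = 0.00015, n = 6 each), and between 1.61 and 3.50 on the log2 scale over 8 ways of scaling the arrays. Gnl2, a nucleolar GTPase needed to mature the large ribosomal subunit, was likewise on all 12 arrays but lower, at 13.45, 13.83 and 14.15 in the knockout and 14.72, 15.15 and 15.64 in wild type. The groups did not overlap, and the log2 fold change was -1.36 ± 0.21 SE (adjusted p = 0.000222, n = 6 each), turning to 0.14 and 0.51 when arrays were scaled to hybridization or transcription controls and to 0.19 in the authors' deposited table. Ddx28, an RNA helicase of mitochondria that serves mitochondrial ribosome assembly, stood at -0.76 ± 0.34 (SE, adjusted p = 0.0807) with overlapping groups. It passed the threshold in the same direction without knockout replicate 2 (-0.97, adjusted p = 0.0208) or wild-type replicate 2 (-0.94, adjusted p = 0.0339). Alkbh5, which removes the methyl mark m6A from mRNA, was at 1.04 ± 0.67 (adjusted p = 0.217), and its wild-type arrays alone ran from 7.62 to 12.24. Trmt61a, the catalytic subunit of a tRNA methyltransferase, was at -0.14 ± 0.62 (adjusted p = 0.869). Nanos1, an RNA-binding repressor of the Nanos family of germline regulators, was at -0.69 ± 0.44 (adjusted p = 0.216), with an interval of -1.65 to 0.27. The intervals of Alkbh5, Trmt61a and Nanos1 allow at least a doubling or a halving, so their state was not settled at 6 arrays a group.

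Of the mitochondrial and protein-handling genes, Coa3 was called lower and Pfdn5 higher. Coa3, which helps assemble cytochrome c oxidase in the inner mitochondrial membrane, had log2 signals of 12.73, 13.47 and 14.07 in the knockout (lowest, median and highest) and 15.20, 15.50 and 16.25 in wild type. The groups stood well apart, and Coa3 was 4.66-fold lower (log2 fold change -2.22 ± 0.29 SE, adjusted p = 5.36e-05, n = 6 each). The call was lost under hybridization controls (-0.78, adjusted p = 0.0848) and transcription controls (-0.41, adjusted p = 0.429), and in the deposited table the value was -0.73 (adjusted p = 0.0439). Pfdn5, a subunit of the prefoldin chaperone that hands new actin and tubulin to the folding machinery, was at 12.95, 13.33 and 13.63 in the knockout and 12.50, 12.77 and 13.06 in wild type. Its groups overlapped slightly, and the rise was small (0.57 ± 0.20 SE, adjusted p = 0.0278). It lost the call when any of 5 arrays was left out: knockout replicates 3, 4 or 6 or wild-type replicates 3 or 5 (0.51 to 0.54, adjusted p of 0.0528 to 0.0638). Atox1, the copper chaperone that feeds the secretory pathway, was on all 12 arrays and at 0.38 ± 0.36 (adjusted p = 0.411). It was above 0 under all 8 ways of scaling the arrays and called higher under 4 of them. Its knockout arrays ran from 14.76 to 16.58 and its wild-type arrays from 14.16 to 15.61, one of the widest spreads among members detected everywhere. Mpdu1, needed for the use of dolichol-linked mannose in glycosylation, was at -0.82 ± 0.38 (adjusted p = 0.0888) and at -1.10 without wild-type replicate 5 (adjusted p = 0.0126). Under 3 of the 8 scalings Mpdu1 was called lower, and under 3 others it was above 0.

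The promoters of 2 members that fell and 2 that rose, with groups apart in each, are shown so that their letters can be compared. Each is the 300-base window around the annotated start in RefSeq, build GRCm38.p6, 5′ to 3′ on the gene's strand. Capitals mark CCAAT or GGGCGG boxes on either strand (read as ATTGG and CCGCCC on the other one). Coa3 lies at chr11:101278899-101279198, minus strand, and Eola1 at chrX:70385663-70385962, plus strand. Pdxp lies at chr15:78913669-78913968, plus strand, and Ghdc at chr11:100770908-100771207, minus strand.
Coa3: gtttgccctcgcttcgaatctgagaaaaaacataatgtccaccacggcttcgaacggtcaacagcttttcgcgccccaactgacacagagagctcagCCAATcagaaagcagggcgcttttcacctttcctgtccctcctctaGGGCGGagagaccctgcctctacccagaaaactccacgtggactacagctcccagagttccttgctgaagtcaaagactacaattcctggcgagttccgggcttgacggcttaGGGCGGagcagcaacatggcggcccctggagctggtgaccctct
Eola1: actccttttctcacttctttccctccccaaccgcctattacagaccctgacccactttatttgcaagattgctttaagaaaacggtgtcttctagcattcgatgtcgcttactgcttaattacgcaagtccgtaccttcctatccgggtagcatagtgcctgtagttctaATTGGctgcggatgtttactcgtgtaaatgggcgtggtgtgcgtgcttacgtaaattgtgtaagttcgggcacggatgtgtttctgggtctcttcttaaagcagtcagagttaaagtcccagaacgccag
Pdxp: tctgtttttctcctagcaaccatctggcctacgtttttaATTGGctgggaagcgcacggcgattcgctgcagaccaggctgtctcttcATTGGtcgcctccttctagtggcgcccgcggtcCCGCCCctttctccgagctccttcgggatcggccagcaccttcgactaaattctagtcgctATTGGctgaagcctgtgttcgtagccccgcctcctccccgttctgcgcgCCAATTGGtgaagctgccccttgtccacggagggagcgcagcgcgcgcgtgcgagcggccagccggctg
Ghdc: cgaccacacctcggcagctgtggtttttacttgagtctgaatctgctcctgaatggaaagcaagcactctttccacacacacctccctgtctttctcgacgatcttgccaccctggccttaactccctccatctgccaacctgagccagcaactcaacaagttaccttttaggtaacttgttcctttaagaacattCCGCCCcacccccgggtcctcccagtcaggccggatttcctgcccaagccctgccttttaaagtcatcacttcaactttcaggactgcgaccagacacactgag
The fallen Coa3 has 1 CCAAT box and 2 GC boxes and the fallen Eola1 has 1 CCAAT box and no GC box. The risen Pdxp has 5 CCAAT boxes and 1 GC box and the risen Ghdc has 1 GC box and no CCAAT box. The last capital stretch of Pdxp reads as a CCAAT box on each strand, so these overlapping boxes are counted separately.

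Of the named members, 37 have a promoter in that table. TATAAA, searched on both strands, was in 0 of 37, against 14.2% of 27025 promoters of the same length. GGGCGG was in 22 of 37 (59.5%, against 35.9%) and CCAAT in 16 (43.2%, against 37.9%). The median observed-over-expected ratio of CpG was 0.781, against 0.3885, with a median of 20 CpGs per window against 7. These shares describe a list chosen for detection in oocytes, and a match is a run of letters, not a shown binding site.

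Genes of enzymes and signalling held the largest named rise. Pdxp, a phosphatase that removes the phosphate of pyridoxal phosphate (the active form of vitamin B6) and of cofilin, was above background on all 6 knockout arrays and on 0 of the 6 wild-type ones. Its log2 signals were 10.31, 11.40 and 11.92 in the knockout and 6.69, 7.76 and 8.60 in wild type. Since the wild-type values are not well above background, the size of the rise depends on the detection limit set for them. With the limit described below it was 10.4-fold, and 5.52-fold with arrays centred on their median. That limit is a low one, and a higher limit would give a smaller rise, so neither value is a firm lower bound. The probe met the detection rule through the knockout arrays alone, so this difference is a description and no p is given for it. For these 2 values the knockout mean was divided by the mean detection limit of the wild-type arrays. The limit was the lowest signal of any probe that scored 3 or more on an array, or the Pdxp probe's own signal where that was higher. Wnk4, a kinase known from the control of kidney salt transporters, was at 14.52, 15.39 and 15.56 in the knockout and 16.41, 16.77 and 17.34 in wild type. The groups did not overlap (-1.50 ± 0.24 SE, adjusted p = 0.000259), but Wnk4 was not called under hybridization controls (-0.14), transcription controls (0.23) or the deposited table (-0.13). Ctdnep1, a phosphatase of the nuclear envelope, fell by 1.08 ± 0.36 on the log2 scale (adjusted p = 0.0242), with overlapping groups, and stood at 0.18, 0.54 and 0.27 under the hybridization controls, the transcription controls and the deposited table. Without knockout replicate 5, wild-type replicate 1 or wild-type replicate 6 its adjusted p was 0.0564, 0.0535 and 0.0510. Dpp9, a cytosolic dipeptidyl peptidase, fell 2.001-fold (-1.0006 ± 0.21 SE, adjusted p = 0.00165), from 11.61, 11.87 and 12.36 in wild type to 10.65, 10.88 and 11.28. No array of Dpp9 overlapped between groups, yet it stood at 0.44, 0.81 and 0.49 under the same 3 scalings.

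Rraga, a Rag GTPase that brings the growth kinase mTORC1 to the lysosome, rose 4.33-fold (2.11 ± 0.69 SE, adjusted p = 0.0213). It was above background on 6 knockout and 3 wild-type arrays, at 8.82, 11.09 and 11.95 in the knockout and 7.17, 8.71 and 10.94 in wild type. The groups overlapped, and without knockout replicate 3 the adjusted p was 0.0500012. The call was also lost with median centring (1.40, adjusted p = 0.0553) and with quantile normalization of the tested probes alone (1.43, adjusted p = 0.0619). Flcn, folliculin, which acts on the Rag GTPases, was on all 12 arrays with no such call (0.39 ± 0.36, adjusted p = 0.395). Its knockout arrays lay at 14.999, 15.84 and 16.94 and its wild-type arrays at 14.99, 15.25 and 16.31, almost the same range. Notum, an enzyme that removes the lipid from Wnt proteins, rose by 2.02 ± 0.43 (log2, SE; adjusted p = 0.00196). It was above background on 6 knockout arrays, at 9.47, 10.05 and 11.32, and on 1 wild-type array, at 7.42, 8.07 and 9.58 over that group. The upper end of the wild-type values reached the lower end of the knockout values, and the size of the rise rests on wild-type values near background. Ghdc, whose role is less well known, was 4.21-fold higher (2.07 ± 0.38 SE, adjusted p = 0.000706), at 11.24, 11.67 and 11.92 in the knockout and 8.37, 9.51 and 10.96 in wild type. It was above background on every knockout array and on 2 of 6 wild-type arrays, and its groups did not overlap. For Rraga, Notum and Ghdc the knockout arrays alone met the detection rule. Their calls describe that selection and support no direction. Grap, an adaptor of receptor tyrosine kinase signalling, Edar, a receptor of the tumour necrosis factor family, and Fam83g, a scaffold of casein kinase 1, were at 0.18 ± 0.47, 0.29 ± 0.48 and 0.01 ± 0.46, all above background on 2 of 6 wild-type arrays.

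Among transcription and chromatin genes 1 was called. Zbtb18, a zinc finger repressor known from brain development, rose by 2.08 ± 0.47 (log2, SE; adjusted p = 0.00266), at 10.25, 11.77 and 12.12 in the knockout and 7.67, 9.53 and 10.32 in wild type. The highest wild-type array passed the lowest knockout array by a small margin, and 2 of 6 wild-type arrays were above background. Every knockout array was, so the knockout arrays alone met the detection rule. The call of Zbtb18 describes that selection and supports no direction. Zfp979, a zinc finger gene with close copies in the mouse genome, was at 1.35 ± 0.59 (adjusted p = 0.0749). Knockout replicate 1 stood at 7.97 against 10.65 to 11.09 on the other knockout arrays, and without it the value was 1.84 (adjusted p = 0.00615). It also passed without wild-type replicate 5 (1.62, adjusted p = 0.0408). Med9, a subunit of the Mediator complex, was at -0.71 ± 0.43 (adjusted p = 0.19). Zkscan17 was at 0.21 ± 0.39 (adjusted p = 0.689). The histone gene H2bc13, whose probe may read near-identical H2B genes, was at 0.55 ± 0.32 (adjusted p = 0.179), and passed without wild-type replicate 5 (0.77, adjusted p = 0.0426). Jmjd4, a hydroxylase of the JmjC family, was at 0.22 ± 0.47 (adjusted p = 0.715).

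The 2 members derived from, or grouped with, retrotransposon-derived X-linked genes both fell, and no other tested named probe was in that list. Both were above background on all 12 arrays, and of all probes detected that often 36.8% were lower. Of the 2 only Rtl8c is derived from a retrotransposon, so nothing is read for the class. Rtl8c, made from the gag part of an ancient retrotransposon and with close copies beside it, was at 10.82, 12.30 and 12.83 in the knockout and 13.70, 14.44 and 15.66 in wild type. The groups were apart, and the fall was 5.04-fold (-2.33 ± 0.39 SE, adjusted p = 0.000353). It was not called under hybridization controls (-0.83, adjusted p = 0.0703), transcription controls (-0.47, adjusted p = 0.315) or the deposited table (-0.78, adjusted p = 0.103). Eola1, a small X-linked gene that is not itself a retrotransposon gene, was at 13.60, 14.15 and 14.65 against 16.05, 16.20 and 16.58. Its arrays were tightly grouped, and it fell 4.34-fold (-2.12 ± 0.21 SE, adjusted p = 6.58e-06). The value was -0.72 under hybridization controls (adjusted p = 0.0558), -0.36 under transcription controls (adjusted p = 0.356) and -0.69 in the deposited table (adjusted p = 0.0113). The third X-linked member, Fmr1nb, a gene known from testis, was at 1.21 ± 0.54 (adjusted p = 0.0799), with wild-type arrays from 8.49 to 11.90. With 3 X-linked probes there are too few to read a direction for the chromosome.

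The 3 probes for Prr18 disagreed. All carry the same accession. The first was above background on 5 knockout and 3 wild-type arrays, with log2 signals of 9.31, 11.01 and 14.15 in the knockout and 7.10, 8.72 and 11.13 in wild type (2.29 ± 0.83 SE, adjusted p = 0.0342). The second was on 6 and 3 arrays, at 10.37, 11.47 and 12.82 against 7.50, 9.39 and 11.85 (2.04 ± 0.68, adjusted p = 0.0231). Both had overlapping groups. For the second, the knockout arrays alone met the detection rule, so its call describes that selection. The third was above background on all 12 arrays, at 10.02, 10.28 and 10.89 against 10.49, 10.62 and 11.09, and missed the threshold (-0.33 ± 0.22, adjusted p = 0.224, interval -0.80 to 0.14), though it stood at 0.94, 1.31 and 1.001 under hybridization controls, transcription controls and the deposited table. The first lost its call without knockout replicate 1, 2 or 3 or wild-type replicate 1, 3 or 4 (1.72 to 2.33, adjusted p of 0.0544 to 0.0742). It also lost it with median centring (1.55, adjusted p = 0.0929), quantile normalization of the tested probes alone (1.60, adjusted p = 0.0959) and cyclic loess (1.63, adjusted p = 0.0816). The second lost it without knockout replicate 1 or 3 or wild-type replicate 1 (1.78 to 1.90, adjusted p of 0.0506 to 0.0534). No single value can therefore be given for the gene.

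**Figure D2:**
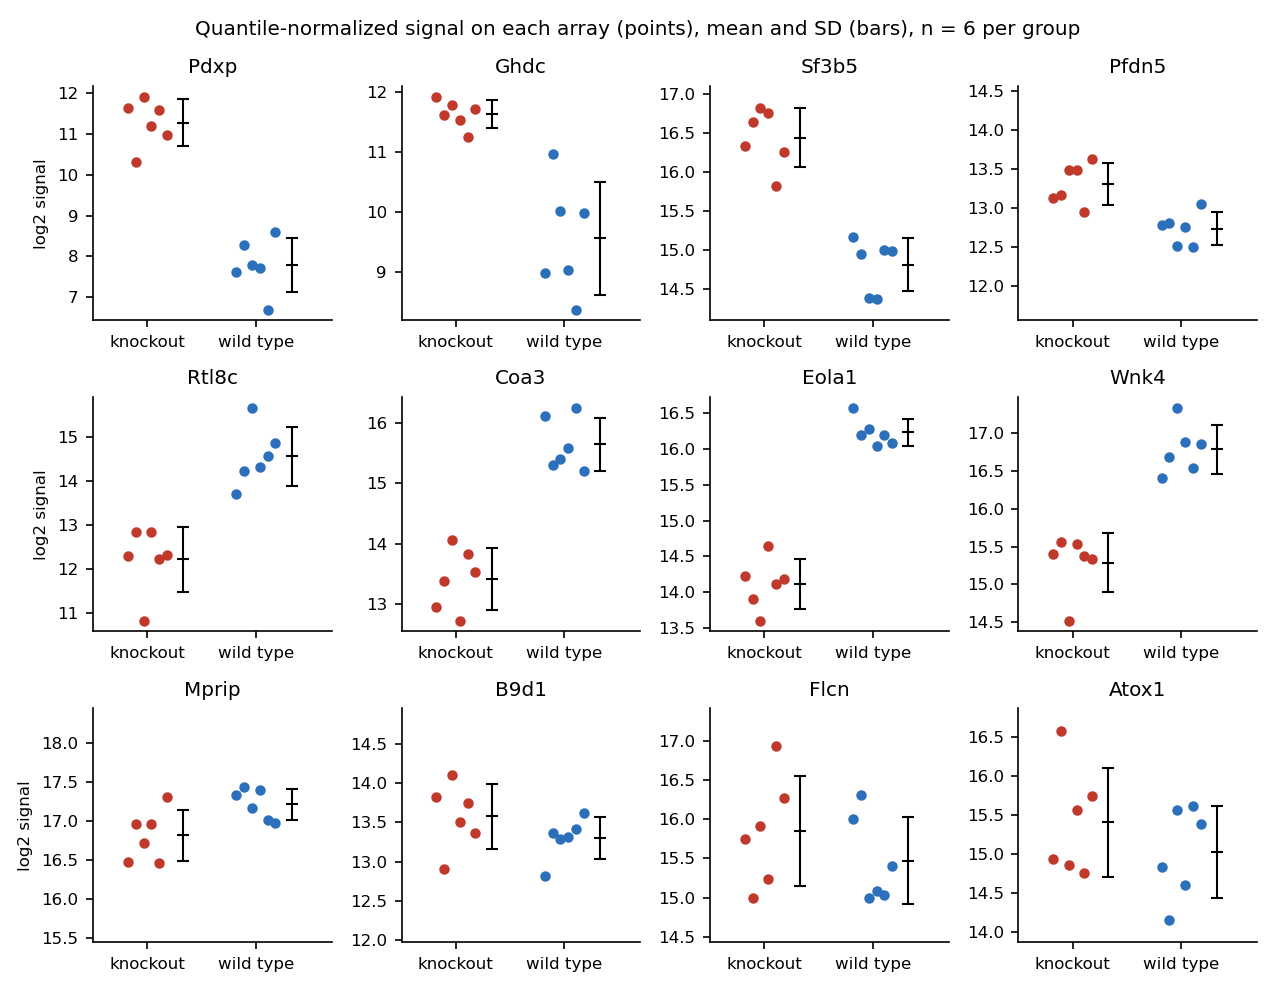
Log2 quantile-normalized signal (y axis, whose range differs between panels) on each of 6 knockout and 6 wild-type arrays for 12 members; bars give the mean and SD. The top row holds rises after quantile normalization, with Pfdn5 overlapping slightly, the middle row falls without overlap, of which Wnk4 stands at 0.23 when scaled to transcription controls, and the bottom row members that did not pass.

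Steady members were those with an adjusted p of 0.05 or more and a 95% interval within -1 to 1 on the log2 scale. There were 5 of 63, against 12.1% of all tested probes, and 34 of the 39 members not called had wider intervals. The named ones were Mprip, B9d1 and the third Prr18 probe, and all 3 were above background on all 12 arrays. Mprip, a scaffold that binds RhoA and the myosin phosphatase on actin fibres, was at 16.46, 16.84 and 17.31 in the knockout and 16.97, 17.25 and 17.43 in wild type. The groups overlapped (-0.40 ± 0.21 SE, adjusted p = 0.123, interval -0.85 to 0.04). B9d1, a protein of the ciliary transition zone, was at 12.91, 13.63 and 14.11 and at 12.82, 13.33 and 13.62, nearly the same range (0.28 ± 0.24, adjusted p = 0.349, interval -0.23 to 0.79). Steadiness was relative to the array too: over the 8 scalings Mprip ran from -0.67 to 1.23 and B9d1 from 0.28 to 2.20. Flcn and Atox1 missed the definition with upper limits of 1.17. Krtap3-3, a keratin-associated protein gene with close relatives, was at -0.61 ± 0.27 (adjusted p = 0.0796, interval -1.20 to -0.02), at 0.86, 1.22 and 0.90 under hybridization controls, transcription controls and the deposited table, and passed without knockout replicate 2 (-0.76, adjusted p = 0.0227).

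The other members that did not pass had wide intervals, and some had a wide spread within a genotype. Ccdc166 was above background on 11 arrays, with wild-type values from 8.33 to 15.48 (SD 2.45, n = 6) and knockout values from 12.66 to 14.16 (0.65 ± 0.93, interval -1.35 to 2.66). Dhrs7b, an enzyme of ether lipid synthesis, had wild-type values from 6.94 to 12.81 and knockout values from 7.59 to 11.07 (-1.48 ± 0.92, adjusted p = 0.201). Sult5a1, a sulfotransferase family member, was at -0.94 ± 0.89 and Trim41, a ubiquitin ligase, at -0.76 ± 0.79. Of 5 other tested genes in the ubiquitin list, all left out of the members by name, 1 rose and 3 fell. Over all tested probes 28.0% were higher and 22.4% lower, and no direction is read from so few. Gjd3, a connexin, was at -0.59 ± 0.45, Aldh3a2, the fatty aldehyde dehydrogenase, at 0.30 ± 0.39, Snap47, a SNARE protein, at 0.47 ± 0.40, Llgl1, a cell polarity protein, at 0.66 ± 0.42, and Fam122a, an inhibitor of the phosphatase PP2A, at 0.25 ± 0.53. None of these 9 passed. Over the members the median within-group SD was 0.72, and 0.69 over all tested probes.

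Of the 18 members without a symbol, 2 rose (11.1%) and 6 fell (33.3%), beside 28.0% and 22.4% of all tested probes, and nothing particular to them is read from so few. The highest, with accession NM_008049.1, was at 13.73, 14.68 and 15.22 in the knockout and 7.52, 9.42 and 10.13 in wild type, the widest gap of any member (5.55 ± 0.47 SE, adjusted p = 1.93e-06). It was above background on every knockout array and on 3 of 6 wild-type arrays. The knockout arrays alone met the detection rule, so its call describes that selection. The largest fall among them, NM_009018.1, was at 7.75, 8.94 and 10.01 against 10.35, 10.64 and 11.60 (-1.93 ± 0.44, adjusted p = 0.0027), and was above background on 4 of 6 knockout arrays. It was above background on every wild-type array, which alone met the rule, so this call describes the selection too. Over all 63 members, the groups did not overlap for 4 higher and 8 lower probes, where 15.2% and 13.1% of all tested probes had groups apart in those directions.

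How far these calls depended on scaling was read from 8 ways of putting the arrays on one scale. In all 8, the same 8 members were higher with an adjusted p under 0.05: Pdxp, Zbtb18, Ghdc, Sf3b5, Notum, Pfdn5, the second Prr18 probe and NM_008049.1. Of these, Sf3b5 and Pfdn5 were above background on all 12 arrays. The rest were above background on every knockout array and on at most 3 wild-type arrays, so the knockout arrays alone met the detection rule. Their calls describe that selection and support no direction. No member was called lower in all 8. Below 0 in all 8 were 5 members, namely Rtl8c, Coa3, Eola1, Dhrs7b and NM_009018.1, of which Coa3 and Eola1 were called lower in 6. The sign of 38 members changed with the scaling, and 5, among them Dpp9, Mprip and the third Prr18 probe, were called in opposite directions under different scalings. The median log2 fold change of all tested probes was 0.19 after quantile normalization, -0.19 with median centring, 1.34 with hybridization controls, 1.71 with transcription controls and 1.39 in the deposited table. Calls of single members are to be read against these medians.

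**Figure D3:**
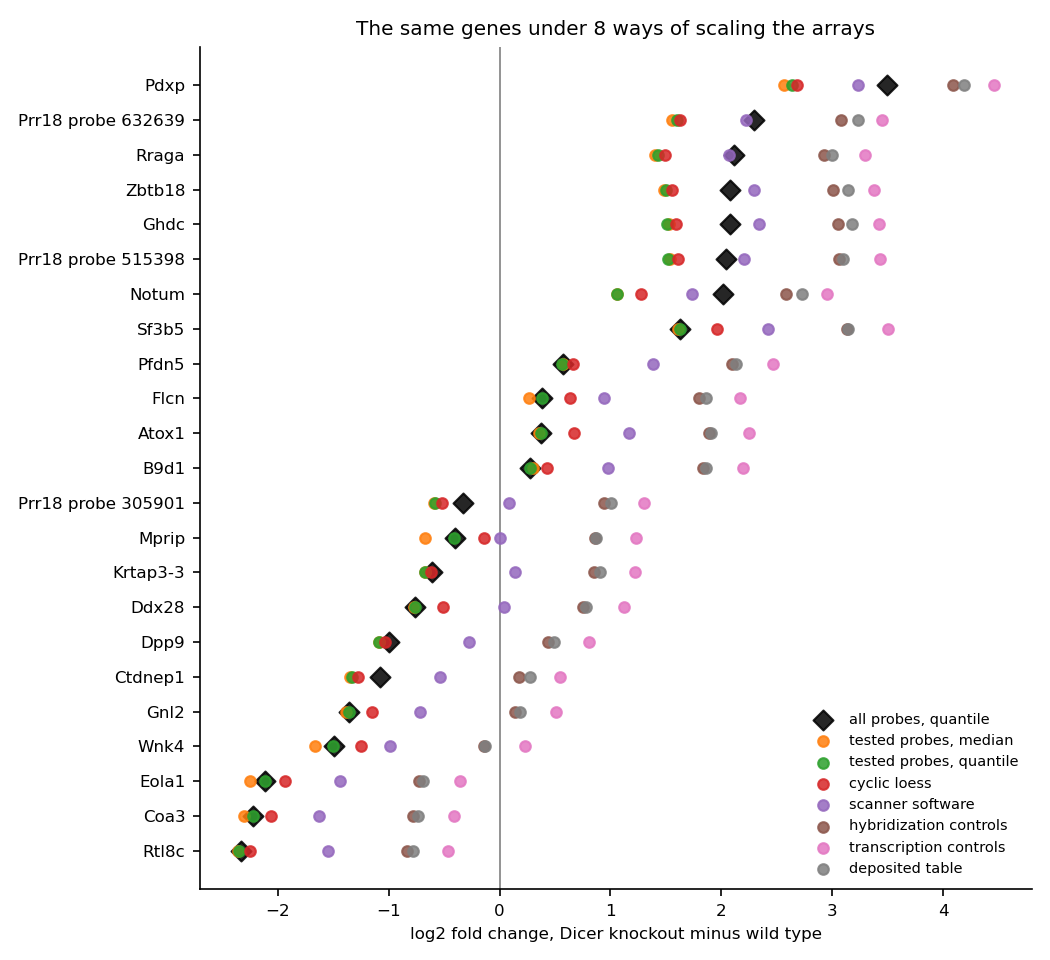
Log2 fold change, knockout minus wild type (x axis), of 23 named member probes (y axis) under 8 scalings; black diamonds are the quantile normalization used in the text. The order of the genes is nearly kept while the whole set shifts, so Pdxp stays above 0 and Coa3 below 0 in each, and Wnk4, Gnl2, Ctdnep1, Dpp9, Mprip, Ddx28, Krtap3-3 and the third Prr18 probe cross 0.

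Ratios of 2 member probes within an array do not depend on a factor common to that array, and only their shift between genotypes was read. These pairs were chosen after their values were seen, and no test was made. The log2 ratio of the raw signals of Sf3b5 over Coa3 was 1.90 to 4.17 on knockout arrays (mean 2.998 ± 0.80 SD) and -1.38 to -0.24 on wild-type arrays (-0.91 ± 0.47, n = 6 each), a shift of 3.91 with no overlap. That of Sf3b5 over Eola1 shifted by 3.86 and that of Ghdc over Wnk4 by 3.19, also without overlap. Ghdc was above background on 2 of 6 wild-type arrays, and the knockout arrays alone met its detection rule. Most of its wild-type ratios therefore rest on values near background, and the shift of that pair describes the selection. Flcn over Coa3 shifted by 2.57 without overlap, while Sf3b5 over Flcn shifted by 1.34 and Wnk4 over Coa3 by 0.64, both with overlapping groups. Such a shift holds for the pair named and does not say which of its genes moved.

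Chromosome 11 held about as many named members as all other chromosomes together. Of 311 RefSeq probes with a symbol 76 (24.4%) were on chromosome 11, of the 69 that met the detection rule 28 (40.6%), and of the 45 named member probes 23 (51.1%). Of those 23, 2 rose (8.70%), 3 fell (13.0%) and 18 were not called, against 28.0% higher and 22.4% lower over all tested probes. Of the 22 named member probes on other chromosomes 31.8% rose and 18.2% fell, and the difference was not tested. A run of 50 protein-coding genes from Snap47 to Fam83g, part of which corresponds to the human region of Smith-Magenis syndrome, held 26 genes with a RefSeq probe. Of these 13 were members, 1 was left out by name and 12 were under the detection rule, 4 of them above background on 0 arrays. None of the 13 members passed in limma, 0 had an unadjusted p under 0.05, and 2, Mprip and B9d1, were steady. Their log2 fold changes ran from -1.48 to 1.04 with a median of 0.22, and 3 were above background on all 12 arrays. The other 10 were dim, so most of these intervals are wide and the count does not show that the genes are alike in both genotypes.

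**Figure D4:**
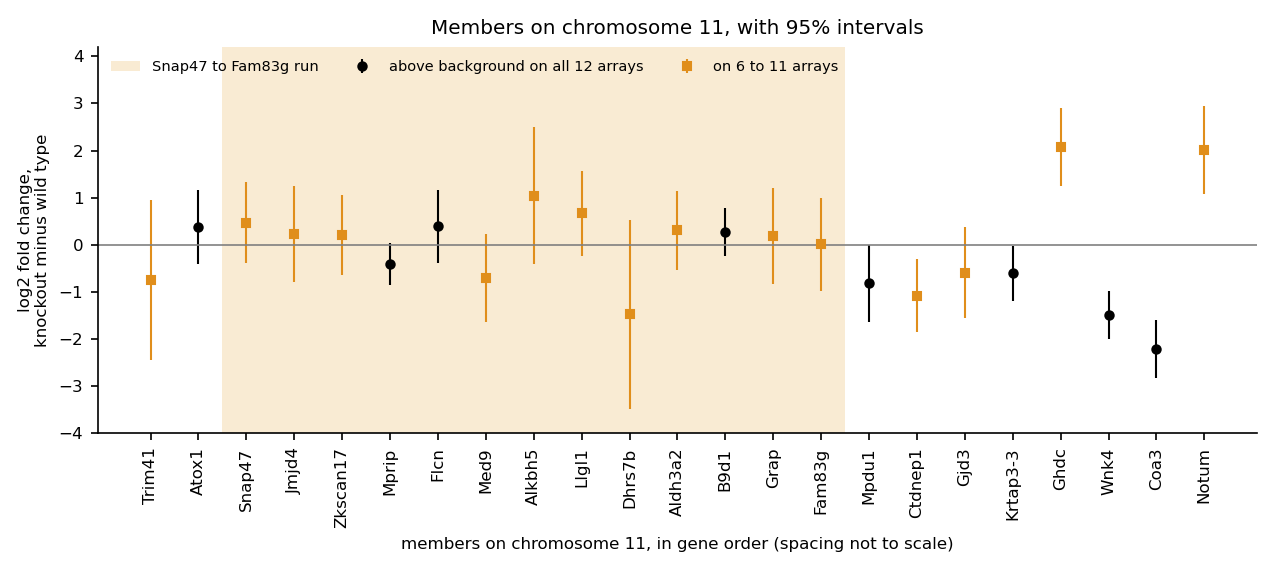
Log2 fold change with 95% interval (y axis) of the 23 member probes on chromosome 11 in gene order (x axis, not to scale). The shaded run from Snap47 to Fam83g holds 13 members, of which 0 passed, and Ctdnep1, Wnk4 and Coa3 (lower) and Ghdc and Notum (higher) lie outside it; Ctdnep1 and Wnk4 cross 0 under control scalings.

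Some members are direct neighbours among protein-coding genes. Wnk4 and Coa3 lie next to each other and both fell after quantile normalization, though Wnk4 was above 0 under transcription controls. Alkbh5 and Llgl1 are neighbours as well, at 1.04 and 0.66, neither past the threshold. Snap47 and Jmjd4 start 11 bases apart and point away from each other, so their promoter windows share 110 bases. That stretch is shown since both genes are read from it, at chr11:59449985-59450094 of GRCm38.p6, with the GC box in capitals.
Snap47 and Jmjd4: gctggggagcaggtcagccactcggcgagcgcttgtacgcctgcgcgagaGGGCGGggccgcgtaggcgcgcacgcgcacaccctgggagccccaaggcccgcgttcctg
Snap47 was at 8.76, 10.40 and 11.15 in the knockout and 9.24, 9.58 and 10.58 in wild type, and Jmjd4 at 8.42, 9.48 and 10.42 and at 7.90, 9.10 and 10.63. In both genes the groups overlapped over most of their range, and neither passed.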

How the data were processed

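Mouse Genome Survey Microarrays (version 1.0) were read with AB1700 software 1.1.1, per the file headers. The deposited scanner files give, per the file headers, a linear and a software-normalized intensity for each spot, a score of signal over noise, and quality flags (unit other). The authors' deposited series table holds linear intensities made by steps that no source used here states, and served as an alternative. Depth has no meaning for arrays: 6 a group limits the precision.

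Spots flagged 5000 or higher counted as missing. Quantile normalization over the 12 arrays was applied to the signals of 33012 gene probes, followed by log2 without an offset. The 6088 probes above background (a score of 3 or more) on at least 6 arrays were fitted with limma 3.58.1 in R 4.3.3. The fit used lmFit and eBayes, two-sided, with p-values adjusted by Benjamini-Hochberg and a threshold of 0.05. An adjusted p is from this fit, except where another scaling or filter or a left-out array is named. Each of those settings was fitted and adjusted on its own. The fit was tested on simulated data. Symbols, gene order and promoters came from RefSeq tables (GRCm38.p6), matched by accession. Figures used matplotlib 3.10.9.

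Members and gene lists were chosen with earlier results of these data known. Each of 15 functional lists was described by its counts. The lists for receptors and for the cell cycle held no member, that for ubiquitin held Trim41 alone, those for membrane traffic, channels, the cytoskeleton and metabolic enzymes held Snap47, Gjd3, Krtap3-3 and Aldh3a2, and that for kinases and phosphatases held Wnk4 and Pdxp, which is no protein kinase. Values were given in full for the 10 largest called rises and falls with a symbol, the 8 least changed and the 3 most variable of those on all 12 arrays, the 4 brightest, and up to 3 of each list; other members were named to account for them after their values were seen. Replicate numbers follow sample order only. Alternatives were other scalings, filters, an offset of 50, flagged spots, percentile ranks, an intensity trend and leaving out each array.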

Additional observations from a re-analysis of the deposited data

Results flagged for a closer look

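In 64 groups of 6 arrays (both genotypes of 32 named probes), 6 held an array far from the others by Dixon's test, where chance gives about 1 in 20, or 3.2. The other member probes were not searched, Grap and Dhrs7b among them. Grap was at 7.61 on knockout replicate 2 and at 9.37 to 9.86 on the other knockout arrays. Dhrs7b was at 6.94 on wild-type replicate 3 and at 10.8 to 12.81 on the other wild-type arrays. All values are log2 quantile-normalized signals, and no cause was tested.

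Knockout replicate 3 stood apart for 3 genes. Rtl8c was at 10.82 there against 12.22 to 12.83 on the other knockout arrays, and Wnk4 at 14.52 against 15.34 to 15.56. H2bc13 was high on that array, at 13.39 against 12.21 to 12.57. The calls of Rtl8c and Wnk4 held without any single array. Zfp979 was at 7.97 on knockout replicate 1 against 10.65 to 11.09, and passed the threshold without it (1.84, limma adjusted p = 0.00615). Mpdu1 was at 11.03 on knockout replicate 2 against 10.28 to 10.54. Zkscan17 was at 7.84 in wild-type replicate 3, the others of its group lying at 9.86 to 10.57.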

How the results depend on the processing

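The count of members called higher, 11 after quantile normalization, was 33 with hybridization controls, 37 with transcription controls, 34 in the authors' deposited table, 6 with percentile ranks, 2 with only probes above background on all 12 arrays and 6 with no filter, and 7 to 13 with an array left out (7 without knockout replicate 3). The count called lower, 13, was 23 with median centring, 21 with quantile normalization of the tested probes alone, 6 with the scanner software's signal, 0 with either control type, 2 in the deposited table and 22 with percentile ranks, and 11 to 15 with an array left out. The control counts of 0 are limma calls at an adjusted p under 0.05. Over all tested probes, 3066 were called, 1906 with only probes above background on all 12 arrays (fewer were tested), and 2789 to 3199 with an array left out. Higher and lower over all tested probes were 1705 and 1361, against 1393 and 1796 with median centring, 2080 and 511 with the scanner signal, 3591 and 135 with hybridization controls, 4204 and 62 with transcription controls and 3842 and 146 in the deposited table. They were 1421 and 1743 with quantile normalization of the tested probes alone and 1316 and 1642 with percentile ranks. Of 2979 probes above background on all 12 arrays they were 703 and 1203, and of 33012 with no filter 1733 and 1112. The fold change turned to above 0 with hybridization controls, transcription controls and the deposited table for Mprip (0.86, 1.23, 0.87), Krtap3-3 (0.86, 1.22, 0.90), Ctdnep1 (0.18, 0.54, 0.27), Gnl2 (0.14, 0.51, 0.19), Dpp9 (0.44, 0.81, 0.49), Ddx28 (0.75, 1.12, 0.78), Mpdu1 (0.54, 0.90, 0.57), Trim41 (0.24, 0.61, 0.25), Gjd3 (0.48, 0.84, 0.58) and the third Prr18 probe (0.94, 1.31, 1.001), and for Wnk4 under transcription controls alone (0.23). With the scanner software's signal it turned for Mprip (0.0041), Krtap3-3 (0.14), Ddx28 (0.039) and the third Prr18 probe (0.083). It turned to below 0 with median centring, quantile normalization of the tested probes and cyclic loess for Aldh3a2 (-0.58, -0.63, -0.19), Zkscan17 (-0.36, -0.36, -0.26) and Jmjd4 (-0.66, -0.70, -0.39), and with the first 2 of these for Snap47 (-0.035, -0.050). In percentile ranks these 4 stood at -8.38, -6.22, -8.23 and -0.12 percentile points. With an array left out, Aldh3a2 ran from -0.013 to 0.51, Zkscan17 from -0.18 to 0.36 and Jmjd4 from -0.042 to 0.51. Of 816 values, over 32 named probes and 26 alternatives, 666 kept direction and side of the threshold, 52 newly passed, 45 no longer passed and 53 turned. The cause of these shifts was not tested.

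No paired analysis was possible because the replicate numbers only name the arrays in sample order. The main limits are the brightness of the knockout arrays, which no control separates from genotype, and probes near background in wild type, whose rises depend on the noise floor. Probes name 43 genes, so each of the 15 gene lists held 0 to 4 member probes.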
